A study of Mus musculus with 12 samples.

Results

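The 12-hour component of the daily expression pattern in the mouse prefrontal cortex was measured by setting the 2 times that lie 3 h after a switch of the light (ZT3 and ZT15, called early here) against the 2 times that lie 9 h after one (ZT9 and ZT21, called late). Zeitgeber time (ZT) counts hours from lights on. All 12 arrays of the series entered, 6 early and 6 late, with 3 arrays at each of the 4 times, and the contrast was the mean of the ZT3 and ZT15 means less the mean of the ZT9 and ZT21 means. The mice were C57BL/6J with no allele or agent added, bought at 10 weeks of age, kept for 1 week to settle and for 1 more week in 12 h of light and 12 h of dark, and each array held RNA from the prefrontal cortex of 1 mouse. This tissue joined the cortex of the most anterior 2 mm, with the olfactory bulb removed, to that of the section in front of the optic chiasm, freed of subcortical tissue. Mice of the dark times were dissected under red light. The 3 mice of a time are separate animals, so the spread between arrays includes the spread between mice.

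With 4 times that lie 6 h apart, this contrast is the only 12-hour component that can be seen, and it catches a rhythm with 2 peaks a day only if these fall near the sampled times. A gene with a single sharp peak or trough a day also has a 12-hour component, and 4 times cannot tell a harmonic of a daily wave from a rhythm of 12 h. Each result is therefore given with the difference in the light (ZT3 minus ZT9), the difference in the dark (ZT15 minus ZT21), and the share of the variation between the 4 time means that the 12-hour component holds. That share would be 100% for a gene with equal means at both early times and equal means at both late times.

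As background, most daily rhythms of transcripts follow the molecular clock, in which transcription factors bound at E-boxes raise their own repressors, and they run with 1 peak a day. Transcripts with 2 peaks a day have been described in mouse tissues, the liver above all, and genes of protein folding in the endoplasmic reticulum (ER) are prominent among them. In the ER, chaperones and disulfide isomerases fold membrane and secreted proteins, and the unfolded protein response raises them together through ER stress elements in their promoters. In the cortex many transcripts also follow neuronal activity and the time spent awake.

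The deposited values were intensities, used as log2, and the brightest probe sets, down to a mean of 4.87 and as many as the study had kept, were tested, of which 20989 carry 1 gene symbol, for 11791 genes. The mean intensity of an array was between 344 and 398, arrays correlated with each other at 0.991 to 0.998, and no pair of arrays was identical. The first principal component held 39.0% of the variance, and 6 arrays had a score beyond 20 on it, 3 above (ZT9 replicate 1 at 33.5, ZT15 replicate 3 at 36.2 and ZT21 replicate 3 at 23.3) and 3 below -20 (ZT3 replicate 2 at -28.7, ZT3 replicate 3 at -33.3 and ZT9 replicate 3 at -20.7). The score was not independent of the time, at -33.3 to -10.4 on the ZT3 arrays and 9.93 to 23.3 on the ZT21 arrays. Counts are also given without the 3 arrays above 20 and without the 3 below -20. Markers of cortical excitatory neurons fitted the tissue label, with Slc17a7, the vesicular glutamate transporter of these cells, between 12.08 and 12.36 on all arrays. The choroid plexus list had 2 of its 8 markers among the tested probe sets, and Ttr, its transthyretin, lay between 9.22 and 12.40 on 10 arrays and at 14.82 and 14.18 on ZT9 replicate 3 and ZT15 replicate 1. Of 7 meningeal markers 6 were measured, 5 of them higher late, and their summed intensity ran from 1344 to 1718 on the early arrays and from 1592 to 2548 on the late arrays. The part of such tissue in the results was not tested. In RNA of a whole tissue, fewer cells of a type and less RNA per cell cannot be told apart.

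At an adjusted p under 0.05, limma's moderated test called 3 probe sets higher early, which are 0.0122% of those tested, and 3 higher late, also 0.0122%, or 0.0244% in all. The early ones belong to Homer1, which encodes a scaffold of the postsynaptic density, and to Hspa5, the main Hsp70 chaperone of the ER, with 2 probe sets. The late ones are both probe sets of Dbp, a transcription factor that the clock drives directly, and 1447164_at, which carries no gene symbol. At the more liberal adjusted p under 0.20, which is the level used in the study, 28 probe sets of 21 genes were higher early (0.114%) and 23 of 18 genes were higher late (0.0937%), 0.208% in all, with differences between 0.326 and 1.842 on the log2 scale. At this level a share of such calls is to be taken as false. The 24-hour component, tested by an F-test of ZT15 minus ZT3 and ZT21 minus ZT9 together, was called for 531 probe sets (2.16%) in the same fit, 25 of them under 0.05 (0.102%). It has 2 differences where the 12-hour component has 1, and the order of both counts was not stable, with 186 for 24 h and 1043 for 12 h without ZT15 replicate 3.

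The 6 probe sets under 0.05 stayed under 0.20 whichever of the 12 arrays was left out, and the other 45 did not. Without 1 array the count under 0.20 was 9, 6 and 7 without ZT3 replicates 1, 2 and 3, 7 without ZT15 replicate 2, and 11, 6 and 13 without ZT21 replicates 1, 2 and 3, it was 34 and 29 without ZT9 replicate 1 and ZT15 replicate 1, and it rose to 135, 335 and 1043 without ZT9 replicate 2, ZT9 replicate 3 and ZT15 replicate 3. Under 0.05 the count ran from 3 to 9, with 9 without ZT9 replicate 1 and 8 without ZT15 replicate 3. Without the 3 arrays with a score above 20 it was 18 under 0.05 and 856 under 0.20, and these held all 51 of the probe sets called from all arrays. Without the 3 arrays with a score below -20, which leaves 1 array at ZT3 that is assumed to vary like the others, it was 2 under 0.05 and the same 2 under 0.20 (limma, with 1228 at an unadjusted p under 0.05). These were Homer1 by 1436387_at (1.83) and Hspa5 by 1427464_s_at (0.88), each at an adjusted p of 0.0366, and the other 49 kept their direction but were not called. No called probe set changed its direction when an array was left out. Setting 6 early against 6 late arrays with no term for the time of day, which adds the 24-hour differences to the error, left no probe set called in limma, with 1935 at an unadjusted p under 0.05. The highest adjusted p with 1 array left out is given with the calls below.

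In most of the called probe sets both means of the higher side lay above both means of the other, by any margin. This does not exclude a single extreme time. Of the 28 called higher early, 24 had both early means above both late means, against 11.4% of all tested probe sets, and of the 23 called higher late, 17 had both late means above both early means, against 17.7%. These shares carry no test, since the same contrast chose the probe sets. Within the early ones ZT15 was the highest time for 25 and ZT3 for 3, and the lowest time was ZT9 for 22 and ZT21 for 6. The late ones peaked at ZT9 in 12 cases and at ZT21 in 11, with the trough at ZT3 in 16 and at ZT15 in 7. The 12-hour share had a median of 65.1% among the early ones and 75.0% among the late ones, beside 23.1% over all tested probe sets. Under 0.20 the 24-hour component was also called for 16 of the early and 7 of the late ones, beside 2.16% of all tested.

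**Figure D1:**
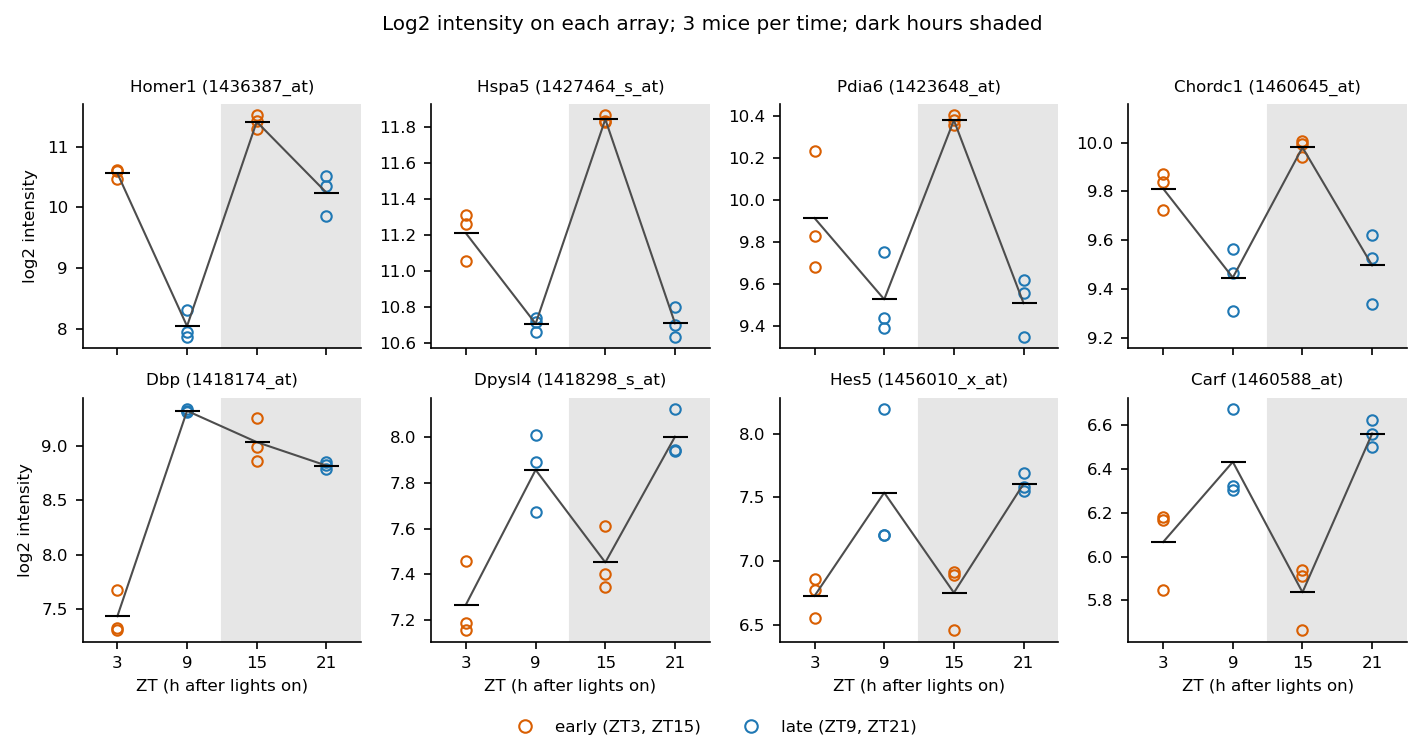
Log2 intensity (vertical axis) at ZT3, ZT9, ZT15 and ZT21 (horizontal axis, hours after lights on, dark shaded) for 8 probe sets, with 1 point per array, early times in orange and late times in blue, and lines at the means. Hspa5, Chordc1, Dpysl4, Hes5 and Carf have no overlap between the 6 early and the 6 late arrays, Homer1 and Pdia6 overlap, and Dbp is low at ZT3 only.

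The promoters of 4 of the early genes carry the same element, and they are shown here because these 4 genes were called together. The 250 bases before the transcript start are from RefSeq (GRCm38.p6), 5′ to 3′ on the strand of the gene. Capitals mark the fixed letters of the ER stress element, CCAAT and CCACG with 9 bases of any kind between them, found on either strand, to which the unfolded protein response directs its factors. Hspa5 is at chr2:34771840-34772089 on the plus strand and Pdia6, a disulfide isomerase, at chr12:17266339-17266588 on the plus strand. Dnajc3, a J-domain co-chaperone of the ER, is at chr14:118937682-118937931 on the plus strand, and Creld2, an ER protein of the stress response, at chr15:88819396-88819645 on the plus strand, with the element reversed.
Hspa5: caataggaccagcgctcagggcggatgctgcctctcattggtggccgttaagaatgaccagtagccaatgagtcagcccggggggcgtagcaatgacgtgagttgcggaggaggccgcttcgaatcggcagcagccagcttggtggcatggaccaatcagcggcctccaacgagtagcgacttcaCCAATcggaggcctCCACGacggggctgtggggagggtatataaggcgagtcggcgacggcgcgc
Pdia6: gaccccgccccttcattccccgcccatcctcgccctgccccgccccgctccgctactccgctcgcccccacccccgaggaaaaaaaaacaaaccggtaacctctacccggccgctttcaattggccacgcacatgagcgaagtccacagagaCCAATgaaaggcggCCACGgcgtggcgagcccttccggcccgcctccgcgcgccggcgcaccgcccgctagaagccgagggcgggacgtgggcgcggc
Dnajc3: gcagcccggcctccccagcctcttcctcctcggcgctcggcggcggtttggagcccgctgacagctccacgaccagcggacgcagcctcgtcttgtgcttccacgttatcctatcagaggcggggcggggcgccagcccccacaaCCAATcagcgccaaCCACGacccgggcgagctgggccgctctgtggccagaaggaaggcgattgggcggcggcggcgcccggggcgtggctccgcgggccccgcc
Creld2: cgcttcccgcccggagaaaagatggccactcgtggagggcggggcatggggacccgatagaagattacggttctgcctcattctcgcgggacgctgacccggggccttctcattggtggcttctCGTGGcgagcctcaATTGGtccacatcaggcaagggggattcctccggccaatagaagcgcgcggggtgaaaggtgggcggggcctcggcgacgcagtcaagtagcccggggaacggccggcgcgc

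This element stood in 4 of the 17 early genes that have a promoter in the RefSeq table (23.5%), in none of the 13 late ones, and in 0.137% of the 9511 tested genes with a promoter (0.119% of all 32851 promoters of the same length, which run from 250 bases before to 50 after the start). Counted back from the transcript start, with -1 for the last base before it, the match begins at -65 in Hspa5, -98 in Pdia6, -105 in Dnajc3 and -126 in Creld2. All 4 belong to the ER chaperone list, where the element stood in 8 of 19 genes with a promoter (42.1%), called or not. A CCAAT box is part of this element and is common, at 42.7% of tested genes. Of the 13 tested genes with the element, taken by their brightest probe set, 9 were higher early with a median difference of 0.14, while the 5 that are not in the ER chaperone list had a median of -0.03. A match is a description of letters and not a bound site.

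Among the ER chaperones Hspa5 had the clearest 12-hour pattern. Probe set 1427464_s_at read 11.31, 11.27 and 11.06 at ZT3, 10.66, 10.72 and 10.74 at ZT9, 11.84, 11.87 and 11.83 at ZT15 and 10.70, 10.63 and 10.80 at ZT21. All 6 early arrays lay above all 6 late ones, and both late times were nearly level. The early minus late difference was 0.82 ± 0.06 (SE, adjusted p = 0.00038 with limma, at most 0.00364 with 1 array left out) and the 12-hour component held 76.9% of the variation between times. In the light the difference was 0.50 (adjusted p = 0.158) and in the dark 1.13 (adjusted p = 0.000947), and the difference between these was not called. The second probe set of Hspa5, 1416064_a_at, gave 0.67 ± 0.08 (adjusted p = 0.019, at most 0.0926), also without overlap, and the third, 1447824_x_at, gave 0.09 (adjusted p = 0.673).

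Pdia6 read 10.23, 9.83 and 9.68 at ZT3, 9.75, 9.39 and 9.44 at ZT9, 10.36, 10.38 and 10.41 at ZT15 and 9.35, 9.56 and 9.62 at ZT21. The ZT15 arrays stood above all others, while ZT3 overlapped with ZT9. The difference was 0.63 ± 0.10 (adjusted p = 0.0966 with limma, up to 0.271 with 1 array left out). Dnajb11, another J-domain partner of Hspa5, read 8.82, 8.78 and 8.73, then 8.54, 8.67 and 8.38, then 9.13, 8.97 and 9.16, and last 8.47, 8.47 and 8.63 in the same order of times. Its early arrays all exceeded its late ones, the closest being 8.73 and 8.67. The difference of the means was 0.41 ± 0.07 (adjusted p = 0.0966, up to 0.316 with 1 array left out), with a 12-hour share of 77.2%.

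Dnajc3 was called through 1 of its probe sets, 1449373_at, which read 6.08, 6.33 and 6.38 at ZT3, 5.25, 6.03 and 5.99 at ZT9, 6.50, 6.95 and 6.39 at ZT15 and 5.13, 5.03 and 5.59 at ZT21. The early arrays lay above the late ones without overlap (0.94 ± 0.16, adjusted p = 0.0966 with limma, up to 0.316 with 1 array left out). The brightest probe set of the gene, 1433887_at, gave 0.26 (adjusted p = 0.493) with means of 9.03, 9.10, 9.81 and 9.23 in order of time, which is 1 peak at ZT15. Creld2 had a single peak as well, at 8.03, 8.62 and 8.28 at ZT15, against 7.60, 7.22 and 7.05 at ZT3, 7.11, 7.08 and 6.88 at ZT9 and 7.38, 7.48 and 7.39 at ZT21. Its difference of 0.58 ± 0.12 (adjusted p = 0.168, up to 0.463 with 1 array left out) went with a 12-hour share of 35.9% and with a call for the 24-hour component (adjusted p = 0.0551).

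Over the whole list of 22 ER chaperones and disulfide isomerases, by their brightest probe sets, 18 were higher early and 4 late, with a median difference of 0.09, beside 37.5% higher early and a median of -0.04 over all 11791 genes. The list median stayed between 0.07 and 0.13 under all 24 alternative settings. By these probe sets 4 were called higher early under 0.20 and none late, where 0.119% of all genes were called higher early and 0.136% late. Those that missed the threshold included Hsp90b1, the Hsp90 of the ER (0.23, adjusted p = 0.398 with limma), and Pdia3, a disulfide isomerase that works on glycoproteins (0.22, adjusted p = 0.438), each with a 12-hour share of about 95% (94.9% and 95.3%). Manf, a secreted ER protein (0.46, adjusted p = 0.359), and Sdf2l1, an ER-resident partner of Dnajb11 (0.63, adjusted p = 0.371), had their highest mean at ZT15. Sil1, the nucleotide exchange factor of Hspa5, ran the other way with all 6 late arrays above the early ones (-0.30, adjusted p = 0.350).

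Hsp90b1 carries the ER stress element at both -212 and -107 from its start, the one nearer to the start reversed, and is shown because its means of 12.29, 12.12, 12.34 and 12.06 in order of time are nearly equal within each phase although it was not called. Its promoter is at chr10:86705445-86705694 on the minus strand (GRCm38.p6, RefSeq), with the fixed letters in capitals.
Hsp90b1: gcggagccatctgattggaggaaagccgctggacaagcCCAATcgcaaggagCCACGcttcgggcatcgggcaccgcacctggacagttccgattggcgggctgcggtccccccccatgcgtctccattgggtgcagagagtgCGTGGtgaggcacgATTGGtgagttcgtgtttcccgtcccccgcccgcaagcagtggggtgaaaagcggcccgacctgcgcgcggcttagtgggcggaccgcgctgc

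The other lists of the ER were split or had more genes higher late, and whether they differed from the chaperones was not tested. Of 13 sensors and transcription factors of the unfolded protein response 5 were higher early, with a median of -0.01, and none was called. Atf6, a sensor that becomes a transcription factor once cleaved, was at 0.28 (adjusted p = 0.435 with limma). Xbp1, the transcription factor made by splicing in this response, was at 0.27 (adjusted p = 0.464) with a high mean at ZT15 only. Genes of ER-associated degradation were split 8 to 8 (median -0.01), and of 33 genes of translocation into the ER and transport to the Golgi 20 were higher late (median -0.06), with no call in either list. The 3 medians crossed 0 among the settings, at -0.08 to 0.05 for the sensors, -0.05 to 0.07 for degradation and -0.08 to 0.02 for translocation and transport, each highest with the score of the first principal component as a covariate.

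Of 25 cytosolic heat shock proteins and co-chaperones 18 were higher early (median 0.06, between 0.02 and 0.17 under all settings), and by brightest probe set 1 was called. That was Chordc1, a co-chaperone of Hsp90, which read 9.87, 9.72 and 9.84 at ZT3, 9.56, 9.47 and 9.31 at ZT9, 10.01, 9.94 and 9.99 at ZT15 and 9.34, 9.53 and 9.62 at ZT21. The groups did not overlap, the difference was 0.42 ± 0.07 (adjusted p = 0.0966 with limma, up to 0.279 with 1 array left out), and the 12-hour component held 92.0%. Hsph1, of the Hsp110 family, was called through probe set 1423566_a_at (0.48 ± 0.09, adjusted p = 0.166, up to 0.476 with 1 array left out) and not through its brightest one, 1425993_a_at (0.22, adjusted p = 0.437). Hspb1, a small heat shock protein, had 0.82 (adjusted p = 0.207), mostly from ZT15. Hspa1b, the inducible Hsp70, had 0.82 (adjusted p = 0.314), and its signal may not be kept apart from that of its near copy Hspa1a. The list did not move alike in light and dark. Chordc1, Hspb1 and Hspa1b were higher early in the light (0.364, 0.409 and 0.528) and in the dark (0.485, 1.225 and 1.118). Dnajb1, Dnajb4 and Dnajb5 were lower early in the light (-0.356, -0.386 and -0.484) and higher early in the dark (0.349, 0.297 and 0.228). The heat shock element, GAA, TTC and GAA with 2 bases of any kind between each, on either strand, was in the promoters of Chordc1 and Hsph1, which are 2 of 17 early genes (11.8%), and in 0.589% of the tested genes. In the cytosolic heat shock list, called or not, it was in 3 of 21 genes with a promoter (14.3%).

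Homer1 had the strongest call of all. Probe set 1436387_at read 10.62, 10.46 and 10.61 at ZT3, 8.31, 7.95 and 7.87 at ZT9, 11.28, 11.43 and 11.52 at ZT15 and 10.35, 10.52 and 9.86 at ZT21. The arrays at ZT9 stood far below all others, and 1 array at ZT21 overlapped with ZT3. The difference was 1.84 ± 0.12 (adjusted p = 7.93e-05 with limma, at most 0.00081 with 1 array left out), made of 2.52 in the light (adjusted p = 5.82e-05) and 1.17 in the dark (adjusted p = 0.0766). It also had a call for the 24-hour component (adjusted p = 0.000495), and the 12-hour share was 55.0%.

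All 6 probe sets of Homer1 were higher early, and 3 of them were called. Probe set 1425671_at read 6.19, 6.49 and 6.68, then 4.75, 4.75 and 4.89, then 6.65, 7.67 and 5.86, and last 5.61, 5.76 and 4.97 in order of time. Its groups did not overlap (1.47 ± 0.25, adjusted p = 0.0966 with limma, up to 0.316 with 1 array left out) and its 12-hour share was 89.6%. Probe set 1425710_a_at gave 0.56 ± 0.11 (adjusted p = 0.184, up to 0.539), also without overlap, with a share of 89.5%. The remaining ones gave 0.69, 0.30 and 0.29 with adjusted p of 0.290, 0.305 and 0.355. Homer1 is made in long and short forms, the short one raised by activity, and which form each probe set reads was not examined.

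Nptx2, a neuronal pentraxin released at excitatory synapses, was called through both probe sets. Probe set 1420720_at read 8.79, 8.77 and 9.06 at ZT3, 8.10, 7.82 and 7.53 at ZT9, 8.74, 8.93 and 9.26 at ZT15 and 8.56, 8.55 and 8.63 at ZT21. No early array fell to the level of a late one (0.73 ± 0.11, adjusted p = 0.0966 with limma, up to 0.279 with 1 array left out), and 1449960_at gave 0.58 ± 0.10 (adjusted p = 0.0966, up to 0.334), again without overlap. Egr3, a zinc-finger transcription factor that neuronal activity induces, read 11.89, 11.86 and 11.86 at ZT3, 11.15, 11.46 and 11.13 at ZT9, 11.98, 12.22 and 12.53 at ZT15 and 11.88, 11.59 and 11.92 at ZT21. Here ZT21 overlapped with ZT3, and the difference of 0.54 ± 0.10 (adjusted p = 0.164, up to 0.463) came with a 12-hour share of 56.6%. The other of its 2 tested probe sets gave 0.11 (adjusted p = 0.597).

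The list of 33 immediate early and activity-regulated genes as a whole did not follow these 3. By brightest probe set 12 were higher early and 21 late, with a median of -0.07 that crossed 0 among the settings (-0.18 to 0.03), and 2 were called early and none late. Fos, a transcription factor that activity induces within minutes, had its lowest mean at ZT3, with means of 8.92, 10.80, 10.73 and 10.68 in order of time, and had a difference of -0.92 (adjusted p = 0.603 with limma), and a 12-hour share of 33.5%. Arc, a regulator of synaptic receptors, had 8.78, 10.94, 11.05 and 10.36 (-0.74, adjusted p = 0.655). Bdnf, the neurotrophin, was at 0.49 (adjusted p = 0.264) with means of 8.27, 7.89, 9.07 and 8.47.

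Etv5, a transcription factor of the ETS family, was called through 2 probe sets. Probe set 1450082_s_at read 8.68, 8.83 and 8.91 at ZT3, 7.66, 8.37 and 8.35 at ZT9, 9.07, 9.27 and 9.08 at ZT15 and 8.45, 8.33 and 8.34 at ZT21. Its early arrays were all above its late ones (0.73 ± 0.12, adjusted p = 0.0966 with limma, up to 0.288 with 1 array left out) with a share of 86.0%, and 1428142_at gave 0.49 ± 0.08 (adjusted p = 0.0966, up to 0.316). Synj2, an inositol phosphatase of vesicle traffic, was called through 2 probe sets without overlap, at 0.57 ± 0.10 (adjusted p = 0.0966, up to 0.316) and 0.52 ± 0.11 (adjusted p = 0.182, up to 0.509), with shares of 85.3% and 93.9%.

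Other early genes had most of their change at ZT15. Camk1g, a calmodulin-dependent kinase, had means of 7.86, 7.83, 8.88 and 8.13 in order of time, and its difference of 0.39 ± 0.07 (adjusted p = 0.0966 with limma, up to 0.299 with 1 array left out) lay within the dark, at 0.74, and not in the light, at 0.03. Its 12-hour share of 21.1% was the lowest of all 51 and below the median of all probe sets. Pfkfb3, a regulator of glycolysis, had 7.35, 7.16, 8.09 and 7.36 (0.46 ± 0.09, adjusted p = 0.164, up to 0.463), and Osbpl3, an oxysterol-binding protein, had 7.94, 7.71, 8.77 and 7.93 (0.53 ± 0.08, adjusted p = 0.0966, up to 0.279). Sfpq, a splicing factor, had 10.07, 9.76, 10.55 and 10.15 (0.35 ± 0.06, adjusted p = 0.0966, up to 0.316). It was called through 1 of 6 tested probe sets, which ran from -0.05 to 0.35, and Osbpl3 through 1 of 2. The remaining early genes were Sgsm1, Galnt9, 1810014B01Rik, Fndc3b and Cdyl2, with differences of 0.52, 0.46, 0.52, 0.33 and 0.67 and adjusted p of 0.0966 to 0.182, and the probe set 1442051_at with 0.61. With 1 array left out their adjusted p rose to between 0.299 for 1442051_at and 0.506 for Cdyl2. Sgsm1, 1810014B01Rik, Fndc3b and Cdyl2 also had tested probe sets that were not called, down to 0.12, -0.03, 0.02 and 0.24.

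**Figure D2:**
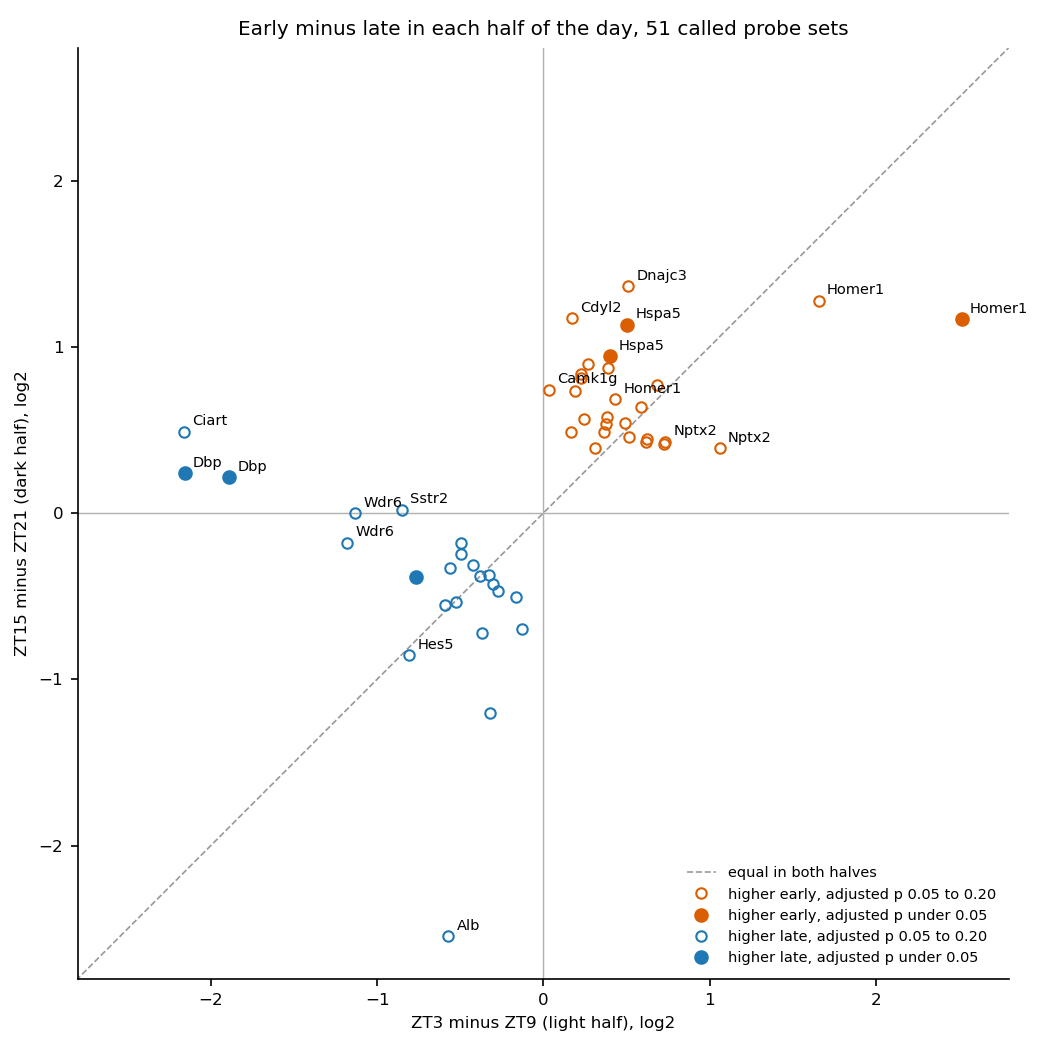
Difference in the light, ZT3 minus ZT9 (horizontal axis, log2), against the difference in the dark, ZT15 minus ZT21 (vertical axis, log2), for the 51 called probe sets, early in orange and late in blue. All 28 early points lie in the quadrant where both differences are above 0, and 5 of the 23 late points, among them both Dbp probe sets and Ciart, are not in the quadrant where both are below 0. The average of both differences chose the probe sets.

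All 28 early probe sets had the same sign in the light and in the dark, and so did 18 of the 23 late ones. The contrast that chose these probe sets is the average of both differences, so the shared sign is largely built in and carries no test. Under an adjusted p of 0.20, 3 of the early ones were called in the light alone or with the dark and 13 in the dark, 2 of them in both, and of the late ones 7 were called in the light, 6 in the dark and none in both. In all, 23 probe sets (0.0937%) were called for ZT3 minus ZT9, 11 of them under 0.05 (0.0448%), and 47 (0.191%) for ZT15 minus ZT21, 3 of them under 0.05 (0.0122%). With 1 array left out the counts under 0.20 ran from 7 without ZT3 replicate 2 to 3647 without ZT9 replicate 3 in the light, and from 4 without ZT15 replicate 2 to 1883 without ZT21 replicate 3 in the dark. The difference between light and dark was itself called under 0.05 for 6 probe sets (0.0244%) and under 0.20 for 17 (0.0693%).

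The clock genes among the late calls were low at ZT3 alone. Dbp, by probe set 1418174_at, read 7.67, 7.33 and 7.30 at ZT3, 9.35, 9.31 and 9.32 at ZT9, 8.99, 8.86 and 9.26 at ZT15 and 8.79, 8.82 and 8.85 at ZT21. Each ZT3 array lay more than 1 log2 unit below every other array, and the ZT15 arrays were above those of ZT21. The difference was -0.84 ± 0.09 (adjusted p = 0.00508 with limma, at most 0.0321 with 1 array left out), made of -1.89 in the light and 0.22 in the dark, with a 12-hour share of 33.2%. The second probe set of Dbp gave -0.96 ± 0.12 (adjusted p = 0.0207, at most 0.118), with -2.16 in the light and 0.24 in the dark. Ciart, a repressor within the clock, read 5.84, 5.76 and 5.77 at ZT3, 7.81, 8.20 and 7.84 at ZT9, 7.24, 7.49 and 7.97 at ZT15 and 6.75, 7.26 and 7.23 at ZT21. Its difference of -0.84 ± 0.13 (adjusted p = 0.0966, up to 0.288) was again made by the low ZT3, with -2.16 in the light and 0.49 in the dark. The share was 26.3%.

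The Ciart promoter is printed because the gene is the late call with the most E-boxes, CACGTG, the letters bound by the activators of the clock. It lies at chr3:95882229-95882478 on the minus strand (GRCm38.p6, RefSeq), and capitals mark the E-boxes, which begin at -116, -58 and -44 and read the same on both strands.
Ciart: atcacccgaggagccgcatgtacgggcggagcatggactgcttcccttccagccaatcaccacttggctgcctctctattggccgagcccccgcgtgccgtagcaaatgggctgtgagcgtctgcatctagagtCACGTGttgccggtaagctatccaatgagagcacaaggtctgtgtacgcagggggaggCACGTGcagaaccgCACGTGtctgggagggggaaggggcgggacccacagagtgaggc
E-boxes were in 3 of 13 late genes with a promoter (23.1%), in 3 of 17 early ones (17.6%) and in 11.7% of all tested genes. The late ones were Ciart, Ache and Amigo1, and the promoter of Dbp held none.

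Of 20 core clock genes 10 were higher early and 10 late (median -0.01), and apart from Dbp and Ciart none was called. Per2 had its lowest mean, 6.28, at ZT3 and its highest, 9.35, at ZT15, and its difference was -0.18 (adjusted p = 0.668 with limma) with a 12-hour share of 0.656%. Per1, with means of 6.81, 8.40, 8.70 and 8.13, gave -0.51 (adjusted p = 0.417) and a share of 12.4%. Nr1d1, a nuclear receptor that represses clock genes, had 7.12, 8.12, 7.70 and 7.55 (-0.43, adjusted p = 0.531).

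**Figure D3:**
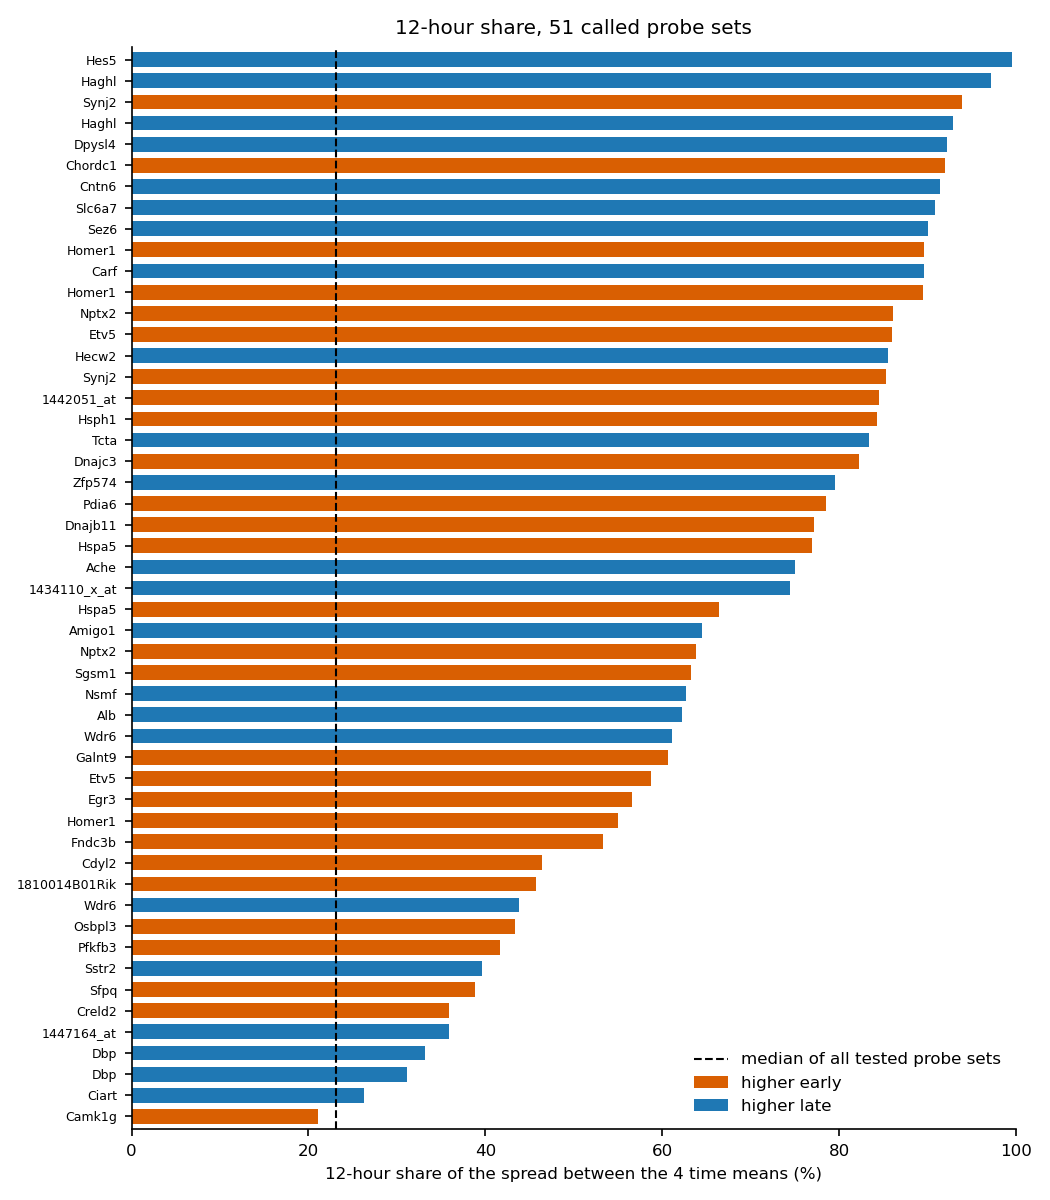
Share of the variation between the 4 time means that lies in the 12-hour component (percent) for each of the 51 called probe sets, early in orange and late in blue, with the median of all tested probe sets, 23.1%, as a dashed line. Hes5 is highest at 99.6%, Camk1g is lowest at 21.1%, and both Dbp probe sets and Ciart are between 26.3% and 33.2%.

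The late genes outside the clock were mostly 2-peaked, and 7 late probe sets had a 12-hour share above 90%. Dpysl4, of the collapsin response mediator family that acts in axon growth, read 7.46, 7.15 and 7.19 at ZT3, 8.01, 7.89 and 7.67 at ZT9, 7.40, 7.34 and 7.61 at ZT15 and 8.13, 7.94 and 7.94 at ZT21. All late arrays exceeded all early ones, the closest being 7.67 and 7.61. The difference of the means was -0.57 ± 0.09 (adjusted p = 0.0931 with limma, up to 0.279 with 1 array left out), with a share of 92.2%. Its 3 tested probe sets were all higher late, and 1 was called. Carf, a transcription factor that responds to calcium in neurons, read 6.17, 6.18 and 5.85, then 6.67, 6.32 and 6.30, then 5.91, 5.66 and 5.94, and last 6.56, 6.50 and 6.63 in order of time. It did not overlap either (-0.55 ± 0.09, adjusted p = 0.0966, up to 0.299), with a share of 89.6%.

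Hes5, a repressor that Notch signaling induces in progenitors and glia, had the share nearest to a pure 12-hour pattern. Probe set 1456010_x_at read 6.86, 6.77 and 6.55 at ZT3, 8.19, 7.21 and 7.21 at ZT9, 6.46, 6.91 and 6.89 at ZT15 and 7.58, 7.55 and 7.69 at ZT21. The late arrays were all above the early ones, and 1 array at ZT9 was above all the rest. The difference was -0.83 ± 0.16 (adjusted p = 0.166 with limma, up to 0.506 with 1 array left out), and the other probe set, 1423146_at, gave -1.02 (adjusted p = 0.252). Slc6a7, the proline transporter of the brain, read 8.86, 8.79 and 8.61, then 9.59, 9.29 and 9.06, then 8.92, 8.96 and 8.97, and last 9.23, 9.36 and 9.24, also without overlap (-0.45 ± 0.09, adjusted p = 0.168, up to 0.506).

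The late calls also included 6 genes with smaller differences. Sez6, a membrane protein of dendrites (-0.37, adjusted p = 0.116 with limma), and Cntn6, a contactin of cell adhesion (-0.37, adjusted p = 0.166), had no overlap between early and late arrays. Amigo1, a leucine-rich adhesion protein (-0.41, adjusted p = 0.150), Nsmf, a messenger from NMDA receptors to the nucleus (-0.34, adjusted p = 0.168), Ache, the acetylcholinesterase (-0.34, adjusted p = 0.182), and Sstr2, a somatostatin receptor (-0.42, adjusted p = 0.184), overlapped. With 1 array left out their adjusted p rose to between 0.331 for Sez6 and 0.536 for Sstr2. Sez6, Amigo1 and Nsmf were each called through 1 probe set. The tested ones ran from -0.37 to 0.02 (3 of Sez6), -0.41 to 0.04 (4 of Amigo1) and -0.34 to -0.14 (3 of Nsmf). For Sstr2 the difference lay in the light (-0.85) and not in the dark (0.02).

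Haghl, a hydrolase-like gene, had 4 probe sets, all higher late, of which 2 were called (-0.36 and -0.38, adjusted p = 0.166 and 0.184 with limma, up to 0.477 and 0.541 with 1 array left out). Zfp574, a zinc-finger gene (-0.37, adjusted p = 0.0966, up to 0.316), and Tcta (-0.35, adjusted p = 0.164, up to 0.476) did not overlap, while Hecw2, a ubiquitin ligase (-0.53, adjusted p = 0.157, up to 0.396), did. Zfp574, Tcta and Hecw2 each had 1 called probe set among 2, 3 and 2 tested, all higher late. Wdr6, a WD-repeat protein, was called through 2 probe sets (-0.57 and -0.68, adjusted p = 0.092 and 0.122, up to 0.279 and 0.341), and its difference lay mostly in the light, with a highest mean at ZT9. Among probe sets without 1 symbol, 1447164_at read 5.27, 5.46 and 5.20, then 6.13, 6.01 and 6.09, then 6.34, 6.30 and 6.10, and last 6.61, 6.48 and 6.80 in order of time. It climbed from each time to the next, and its late arrays overlapped with ZT15 (-0.58 ± 0.08, adjusted p = 0.0388, at most 0.163). The probe set 1434110_x_at gave -0.76 (adjusted p = 0.164, up to 0.392).

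Alb, which encodes the albumin of blood plasma made in the liver, had the largest late difference and a wide spread. It read 5.98, 6.16 and 6.75 at ZT3, 7.42, 6.80 and 6.40 at ZT9, 5.80, 6.13 and 6.13 at ZT15 and 7.44, 9.51 and 8.75 at ZT21. The ZT21 arrays were the 3 highest, and ZT9 overlapped with ZT3. The difference was -1.56 ± 0.30 (adjusted p = 0.166 with limma, up to 0.476 with 1 array left out). Some meningeal markers had their own late differences beside this. Dcn, a proteoglycan of connective tissue, was at 6.72 to 6.87 on the early arrays and 6.82 to 9.13 on the late ones (-0.92, adjusted p = 0.368). Slc6a20a, a transporter of the meninges, was at 7.70 to 8.20 and 8.29 to 8.79 (-0.46, adjusted p = 0.252). Igfbp2 and Igf2 gave -0.432 and -0.265, while Col1a2 was nearly level (-0.017) and Col1a1 was higher early (0.111). None of the markers of any cell type was called, and the part of meninges or blood in the Alb difference was not tested.

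**Figure D4:**
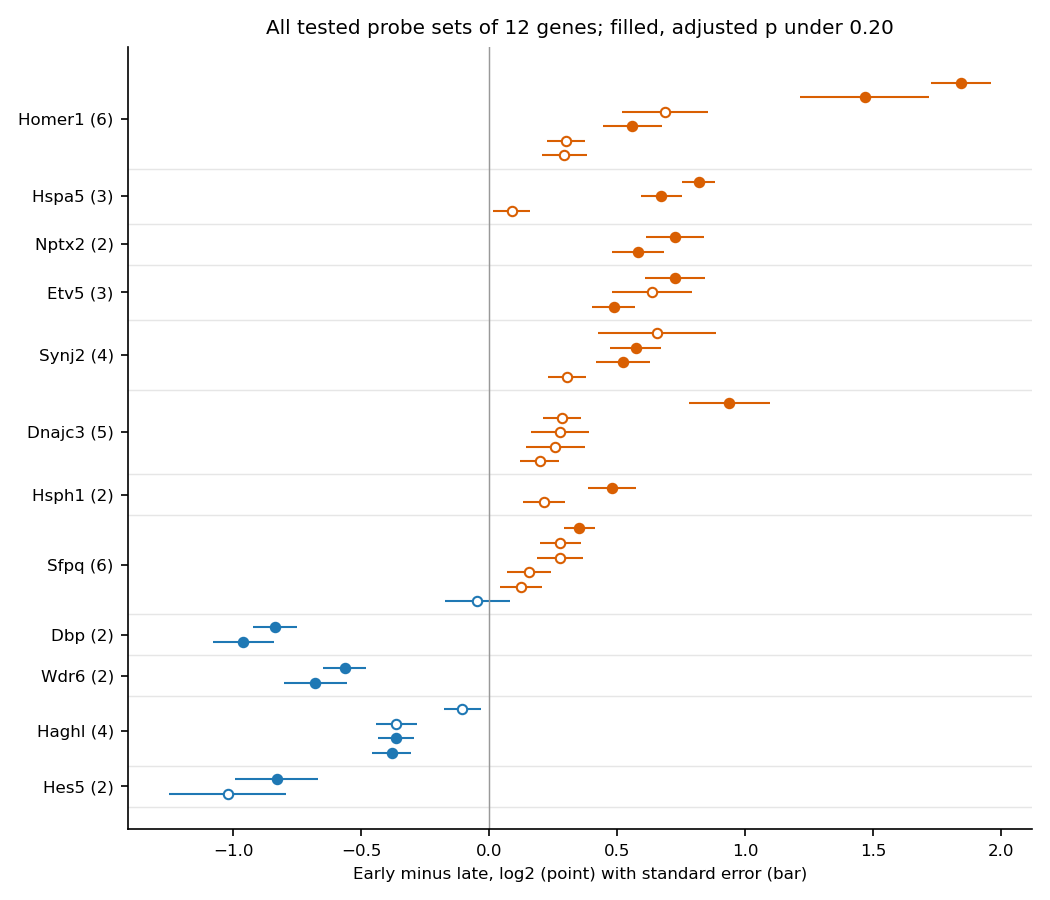
Early minus late difference (log2, horizontal axis) with its standard error for each tested probe set of 12 genes that have several. The probe sets of Homer1 all lie above 0, those of Haghl and Dbp all below 0, and 1 of the 3 probe sets of Hspa5 is close to 0 at 0.09.

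Counted without a model of the spread, 32 probe sets (0.13%) had all 6 early arrays above all 6 late ones and 82 (0.334%) had them all below. Whether these counts exceed those of arrays without any difference was not tested. Of these 114, 22 were among the called ones, which carries no test, since the same early against late difference chose the calls. Probe sets close to the threshold of the calls on either side had similar values. The last probe set inside it was 1 of Haghl (-0.38, adjusted p = 0.184 with limma), and the first outside it was 1 of Pde7b, a phosphodiesterase (0.56, adjusted p = 0.207). Gabra5, a subunit of the GABA receptor, lay outside with -0.42 (adjusted p = 0.221), with no overlap and a share of 97.5%.

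Lists that ran higher late did so by small steps spread over many genes. Over all 11791 genes 7371 were higher late and the median was -0.04, which moved between -0.06 and 0.00 over the settings, so the lists are to be read against it. Of 20 genes of cholesterol synthesis 17 were higher late, with a median of -0.15 (-0.18 to -0.12), and 8 had an unadjusted p under 0.05, where 9.14% of all genes were higher late at that level. None was called. Fdps, which makes farnesyl diphosphate, had -0.38 (adjusted p = 0.252 with limma), Insig1, the sterol sensor of the ER, -0.37 (adjusted p = 0.309), Mvk, the mevalonate kinase, -0.24 (adjusted p = 0.310) and Mvd, a decarboxylase of the same pathway, -0.35 (adjusted p = 0.387). The difference of the list lay mostly in the light, with a median of -0.245 for ZT3 minus ZT9 and -0.029 for ZT15 minus ZT21. Over all genes these medians were -0.095 and 0.001. Sqle had -0.496 in the light and -0.001 in the dark, and Cyp51 had -0.371 and 0.098. Other genes were lower early in both, such as Fdps with -0.395 and -0.367 and Insig1 with -0.305 and -0.435. Insig1 had means of 8.40, 8.71, 8.30 and 8.74 in order of time and a share of 96.0%, which does not stand for the list.

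Mitochondrial ribosomal proteins were higher late in 65 of 76 genes (median -0.12), and genes of the respiratory chain and ATP synthase in 66 of 78 (median -0.09), without a call. With the score of the first principal component as a covariate these medians became 0.01 and 0.01, with 41 and 46 genes higher early. Their direction did not hold under this setting. The score was not independent of the time, so the covariate can also take out a part of the difference between times. This setting therefore cannot decide the direction of these lists. The 45 cytosolic ribosomal proteins had a median of -0.07, with 38 higher late, and reached 0.01 among the settings. Of 31 glutamate and GABA receptors 22 were higher late (median -0.09, between -0.12 and -0.01).

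**Figure D5:**
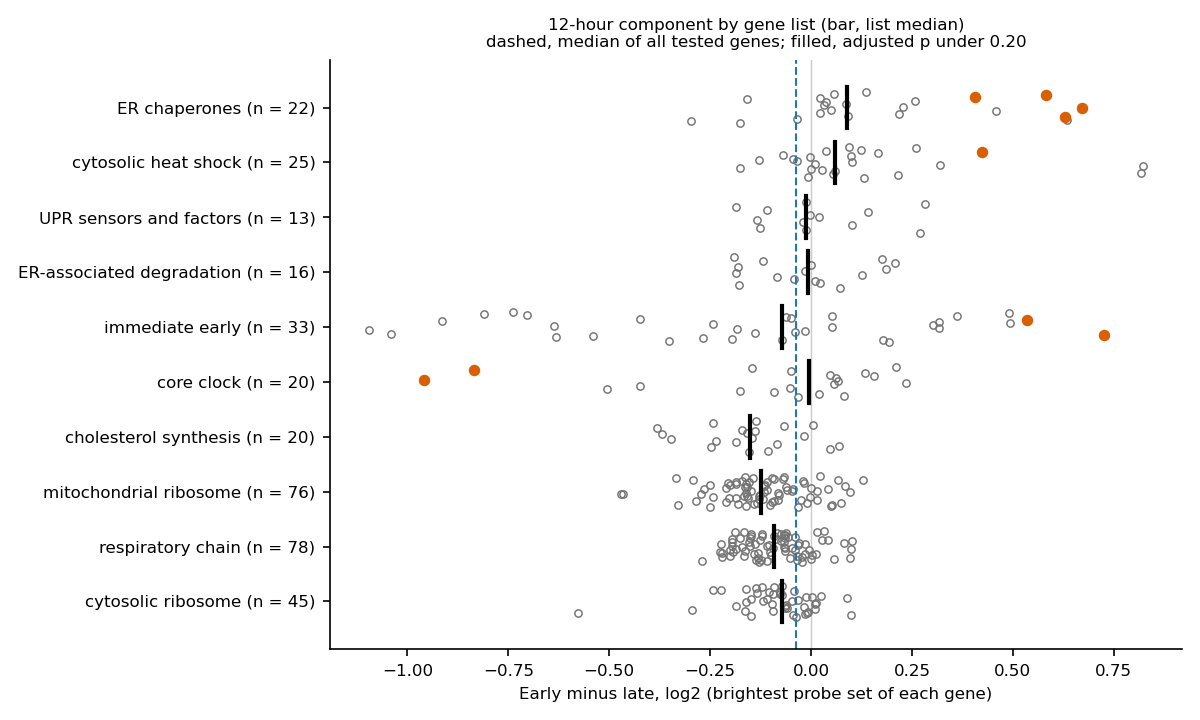
Early minus late difference (log2) of each gene, by its brightest probe set, in 10 lists, with the median of each list as a bar. The ER chaperones (18 of 22) and the cytosolic heat shock proteins (18 of 25) lie mostly above 0, and cholesterol synthesis (17 of 20) lies mostly below 0.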

How the data were processed

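Total RNA of the prefrontal cortex of 12 mice was hybridised to Affymetrix Mouse430_v2 arrays, 1 mouse per array. The deposited unit is linear intensity, obtained by the authors with GCRMA in GeneSpring 7, and detection calls, which the study took from MAS 5.0, were not used here. The table held 45101 probe sets, of which 64 controls were left out, and no value lay below 1.34. Values were taken as log2 of the deposited intensity with no further normalization, and the brightest probe sets (mean log2 of at least 4.87), as many as the study had kept by detection calls, were tested. The number of arrays limits the precision.

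The 4 time means were fitted with limma 3.58.1 in R 4.3.3 (lmFit, eBayes, 8 residual and 3.68 prior degrees of freedom), two-sided, with Benjamini-Hochberg adjustment over all tested probe sets. The 12-hour contrast, both light and dark differences, the difference between these and the moderated F-test of the 24-hour component came from this fit. The script was tested on simulated data. The contrast, gene lists, motifs and markers were chosen with earlier results of these data known. A gene in a list stands by its brightest probe set. Named are the 12 genes with the smallest p in each direction, up to 4 per list, called ER genes and genes that the study names, and all other called probe sets were named after their values were seen. Of 45037 probe sets 34945 have 1 symbol, 932 several and 9160 none. Promoters are from RefSeq (GRCm38.p6).

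Alternatives were quantile normalization, centring, no filter, the 15000 brightest, log2 of the value plus 16, a robust prior with an intensity trend, array weights, an ordinary t statistic, a replicate block, 6 early against 6 late arrays and each array left out. Leaving out the 3 arrays above 20 or the 3 below -20 on the first principal component, and that component as a covariate, were chosen after seeing the data. Tables came from pandas 2.3.3 and numpy 2.4.6 under Python 3.11.15, and figures from matplotlib 3.10.9.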

Additional observations from a re-analysis of the deposited data

Results flagged for a closer look

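The difference between early and late was not the same in the light and in the dark for 6 probe sets, by limma's test of ZT3 minus ZT9 against ZT15 minus ZT21 at an adjusted p under 0.05. For Dbp it was -2.11 (adjusted p = 0.0013) by 1418174_at and -2.40 (adjusted p = 0.00317) by 1438211_s_at, and for Ciart it was -2.65 (adjusted p = 0.00317). Per2 differed by -3.10 (adjusted p = 0.00213), from -1.73 in the light to 1.38 in the dark, and its 12-hour difference is close to 0 because these cancel. Bhlhe40, a repressor of the clock, differed by -1.66 (adjusted p = 0.0438), from -0.98 to 0.68. Cldn5, the tight junction protein of brain endothelium, ran the opposite way with 1.63 (adjusted p = 0.0488), and had means of 8.97, 8.27, 8.40 and 9.33 at ZT3, ZT9, ZT15 and ZT21, so that it was highest at ZT21 and ZT3.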

How the results depend on the processing

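No called probe set changed its direction, but list medians did, for 14 of 22 pathway lists with the principal component as a covariate and for 0 to 5 under each other setting. The 6 calls of the 12-hour component under 0.05 became 17 with quantile normalization, 11 over the 15000 brightest, 559 with array weights, 2 with an ordinary t statistic, 18 without the 3 arrays with a score above 20, 23 with the principal component as a covariate and 3 to 9 with 1 array left out, and the 51 under 0.20 became 412, 118, 5791, 12, 856, 82 and 6 to 1043. Setting 6 early against 6 late arrays, with the 24-hour differences in the error, called 0 and 0 (limma, with 1935 at an unadjusted p under 0.05). The 6 probe sets under 0.05 (Homer1, 2 of Hspa5, 2 of Dbp and 1447164_at) stayed under 0.20 with the ordinary t (adjusted p of 0.0033 to 0.165). All 51 probe sets were called again with quantile normalization, array weights and without the 3 arrays above 20, 50 with log2 of the value plus 16, 48 with a robust prior, 37 with the covariate, 35 with centring, 33 with no filter, 11 with a replicate block, 10 with an ordinary t and 2 without the 3 arrays below -20, and over the 15000 brightest all 37 that were tested. For ZT3 minus ZT9, 11 under 0.05 became 7 with centring, 5 with no filter, 7 with log2 of the value plus 16, 473 with array weights, 4 with an ordinary t and 5 to 14 with 1 array left out, and 23 under 0.20 became 94 with quantile normalization, 42 over the 15000 brightest, 6907 with weights, 11 with an ordinary t, 92 without the 3 arrays above 20 and 7 to 3647. For ZT15 minus ZT21, 3 under 0.05 became 6 over the 15000 brightest, 2732 with weights, 1 with an ordinary t, 985 without the 3 arrays above 20, 47 with the covariate and 1 to 10, and 47 under 0.20 became 170 with quantile normalization, 7592, 10, 4600, 998 and 4 to 1883. For the difference between light and dark, 6 under 0.05 became 2834 with weights, 1 with an ordinary t, 36 without the 3 arrays above 20 and 4 to 8, and 17 under 0.20 became 7 with no filter, 44 over the 15000 brightest, 9293, 4, 4201, 359 with the covariate and 5 to 3246. For the 24-hour component, 25 under 0.05 became 70 over the 15000 brightest, 5113 with weights, 988 without the 3 arrays above 20 and 6 to 41, and 531 under 0.20 became 1496 with quantile normalization, 322 with centring, 180 with no filter, 1103, 12408, 5871, 921 with the covariate and 21 to 4050. Without the 3 arrays below -20 limma called 2 under 0.05 and 2 under 0.20 for the 12-hour component, 0 and 2 for ZT3 minus ZT9, 1 and 1 for ZT15 minus ZT21, 0 and 0 for the difference between light and dark and 0 and 2 for the 24-hour component, with 1228, 1148, 1854, 1474 and 1583 at an unadjusted p under 0.05. The 114 probe sets without overlap became 195 with quantile normalization, and the median of ER-associated degradation became 0.069 with the covariate. The cause of these changes was not tested.

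Same-numbered arrays deviated together in 6 of 18 pairs (correlation above 0.1, range -0.498 to 0.487), and 3 arrays correlated best with their own number. This did not show a pairing by number, and whether some arrays share a batch was not tested. With the replicate number as a block the 12-hour component had 3 calls under 0.05 and 11 under 0.20, ZT3 minus ZT9 had 6 under 0.05, ZT15 minus ZT21 had 1 and 6, the difference between light and dark had 7 under 0.20, and the 24-hour component had 15 and 88.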

Other observations

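The remaining lists were close to the median of all genes, -0.04. By brightest probe set, 10 of 20 core clock genes and 8 of 16 glucocorticoid-responsive genes were higher early (medians -0.01 and 0.00), and no glucocorticoid-responsive gene was called. Of 20 genes of glycolysis and glucose uptake 16 were higher late (median -0.05), with Pfkfb3 as the 1 call, higher early. Proteasome subunits (24 of 35 higher late, median -0.05), factors of translation (38 of 53, median -0.06), aminoacyl-tRNA synthetases (11 of 19, median -0.03), genes of the amino acid response (13 of 18, median -0.03), histone modifying enzymes (24 of 41, median -0.02), potassium channels (32 of 57, median -0.01) and mitochondrial chaperones (5 of 9, median -0.04) had no call. Splicing factors and cold-inducible RNA binding proteins were split 17 early to 15 late (median 0.02).

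Among cell type markers, 6 of 6 of the striatum were higher late (median -0.14, which was 0.01 without the 3 arrays below -20 on the first principal component), and their summed intensity ran from 1515 to 2126 on the early arrays and from 1789 to 2962 on the late ones. Markers of oligodendrocyte precursors were higher late in 4 of 5 (median -0.13). Markers of excitatory neurons, interneurons, astrocytes, microglia and myelin had medians of 0.01, -0.01, -0.02, -0.05 and -0.03. None was called under an adjusted p of 0.20 with limma.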
